A study of Gossypium hirsutum with 16 samples.

Results

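Among the genes read in shoot tips of upland cotton (Gossypium hirsutum) seedlings, 150 stood highest in the control plants of the short-branch strain. They were found by taking the median FPKM (fragments of a gene per unit of its length and of the library's mapped total) of each of the 4 groups of 4 libraries, and keeping the 40402 of 70422 gene IDs with a median of at least 2 FPKM in the short-branch controls. These were ranked by the ratio of that median to the highest of the other 3 group medians, with 0.5 added to both, and the first 150 were taken. The ratios ran from 9.65 at the top through a median of 3.63 to 3.29 at rank 150, while the ratio of the middle gene of all 40402 was 0.942. Because the genes were chosen by these measured values, their height in the short-branch controls is given as a description and is not tested.

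Plants of strain Jinxian-short branch (JX from here on) carry short fruiting branches, and strain 3798 is nulliplex-branch, a form that bears its flowers on the main stem with no elongated fruiting branch. The 4 groups, each with 4 libraries of seedling shoot apex, were JX silenced, JX control, 3798 silenced and 3798 control. In the silenced groups GhBRC1 was the target of virus-induced silencing: a recombinant virus carrying a piece of a plant gene prompts the plant's RNA interference to break down the matching transcript. The treatment of the controls is not given in the sources used here, and separate plants are not stated for the 4 libraries of a group, which means that p-values here reflect the spread among libraries and that this spread may be technical. Virus-induced silencing is often patchy within a plant.

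The shoot apex holds the stem cell niche of the shoot, young leaf primordia and the meristems in the leaf axils from which branches grow. BRC1, a transcription factor of the TCP family, is known from Arabidopsis and other species to act in axillary buds as a brake on their outgrowth, downstream of strigolactone, cytokinin and light signals. Whether an axillary meristem makes a long branch, a short branch or a flower sets the plant form in which these strains differ. Cotton is an allotetraploid, so most genes are present in A and D subgenome copies of close sequence.

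The IDs could not be paired with gene names (0 of 70422 matched 99454 RefSeq genes), so the genes are given by ID and chromosome, their functions are not described, and neither the silenced transcript nor tissue markers could be checked. Total FPKM per library lay between 552185 and 603167, and relative sequencing depth between 0.909 and 1.33 times that of 3798 control 1. In JX controls the relative depth was 0.909 to 1.17. Absolute depth is unknown, so no limit from counting error can be given. Since the apices were sequenced in bulk, fewer cells of a type and less RNA per cell cannot be told apart.

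Several libraries stood away from their labelled groups in these 150 genes, and the name "highest in short-branch controls only" held for the group medians but not for every library. In 3798 control 3, 133 of the 150 genes (88.7%) were at or above 50% of their JX control median, against 0 or 1 gene in each of 3798 controls 1, 2 and 4. Library 4 of the JX silenced group had 48 such genes (32.0%) and library 4 of the 3798 silenced group 20 (13.3%), where each of the other silenced libraries had 0 to 2. Among all eligible genes whose JX control median was at least 2-fold above that of the other 3 libraries of the same silenced group (0.5 added), 71.2% reached this level in JX silenced 4 and 49.7% in 3798 silenced 4. These sets include the members, and genes near the 2-fold cut reach 50% with little rise. The shares are therefore not compared with those of the members. On the log2 scale JX silenced 4 lay 49.2% of the way from the other 3 libraries of its group to the JX controls in the median member, and 55.1% of the way in the 2385 other genes with a difference of at least 2-fold. For 3798 silenced 4 the corresponding values were 53.8% for the members and 43.8% for 3023 other genes. The labels are used as given: whether these libraries come from plants of the strain and treatment they name was not tested, and every value for their groups holds for the libraries as labelled. These libraries are named wherever a value rests on them.

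The level of the 150 genes as a set differed by library as follows. The median gene had 2.16, 2.15, 1.09 and 4.60 FPKM in JX silenced libraries 1 to 4, against 9.75, 9.38, 12.8 and 11.5 FPKM in JX controls 1 to 4. In 3798 silenced libraries 1 to 4 it had 0.894, 1.24, 1.35 and 4.09 FPKM, against 1.61, 1.73, 7.21 and 1.42 FPKM in 3798 controls 1 to 4. The JX controls were the highest 4 libraries, 3798 control 3 came next, and then the fourth library of each silenced group, above all 9 others. Together the genes made up 0.0707% to 0.241% of all FPKM in JX silenced libraries and 0.482% to 0.589% in JX controls, against 0.0503% to 0.213% in 3798 silenced libraries and 0.0743% to 0.372% in 3798 controls.

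**Figure D1:**
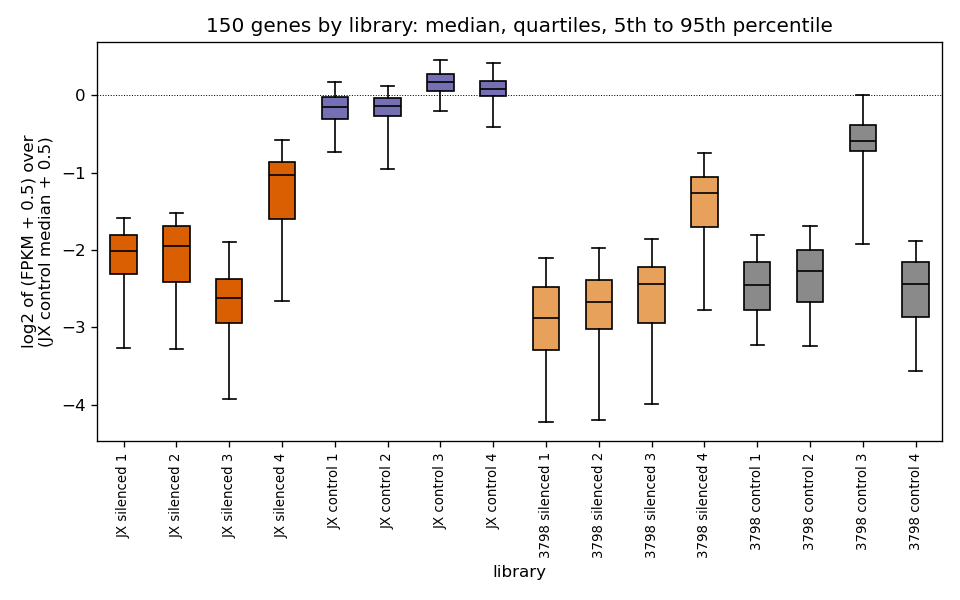
Level of the 150 genes in each library, as the log2 of (FPKM + 0.5) over (JX control median + 0.5). Boxes show the median and quartiles over genes and whiskers the 5th to 95th percentiles; 3798 control 3 has a median of -0.59, close to the JX controls, and JX silenced 4 (-1.03) and 3798 silenced 4 (-1.27) lie above the other 3 libraries of their groups.

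Most of the genes were of middle abundance. The JX control medians ranged from 2.08 to 228 FPKM, with 30 genes under 5 FPKM, 84 from 5 to under 20, 33 from 20 to under 100, and 3 at 100 or more. The middle JX control median was 11.4 FPKM, while that of all 40402 eligible genes was 7.14 FPKM. On the low side, 40 genes had a median under 1 FPKM in JX silenced libraries, 59 in 3798 silenced libraries and 48 in 3798 controls. Complete absence from a group was rare, since 2 genes were listed at 0 in all 4 JX silenced libraries, 3 in all 4 3798 silenced libraries and 0 in all 4 3798 controls.

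The gene with the highest ratio, 9.65, was Gh_D01G082700, on chromosome D01. It had 1.49, 0.603, 0 and 1.71 FPKM in JX silenced libraries 1 to 4, against 11.8, 14.2, 20.5 and 14.6 FPKM in JX controls 1 to 4. In 3798 silenced libraries 1 to 4 it had 0.0735, 0, 0.182 and 4.00 FPKM, against 0.482, 0.307, 8.76 and 0 FPKM in 3798 controls 1 to 4. Every JX control lay above every other library, with 3798 control 3 nearest to them and 3798 silenced 4 the highest of the silenced libraries.

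Gh_A09G231100, on chromosome A09, had the next ratio, 9.16. It had 0.435, 1.10, 0 and 1.46 FPKM in JX silenced libraries 1 to 4, against 6.71, 10.9, 11.4 and 12 FPKM in JX controls 1 to 4. In 3798 silenced libraries 1 to 4 it had 0.0732, 0, 0 and 1.66 FPKM, against 0.800, 0.747, 11.2 and 0.232 FPKM in 3798 controls 1 to 4. For this gene 3798 control 3 lay inside the range of the JX controls, while the other 3798 controls were under 1 FPKM.

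The genes with the highest JX control medians were Gh_D10G052800 and Gh_D10G210000, both on chromosome D10. Gh_D10G052800 had 65.5, 68.3, 28.7 and 187 FPKM in JX silenced libraries 1 to 4, against 206, 197, 252 and 249 FPKM in JX controls 1 to 4. In 3798 silenced libraries 1 to 4 it had 16.5, 23.6, 29.6 and 95.7 FPKM, against 22.5, 24.7, 154 and 16.1 FPKM in 3798 controls 1 to 4. The fourth silenced library of each strain and 3798 control 3 were again high, and JX silenced 4 came close to the lowest JX control.

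Gh_D10G210000 had 17.4, 18.5, 11.2 and 25.1 FPKM in JX silenced libraries 1 to 4, against 140, 163, 279 and 279 FPKM in JX controls 1 to 4. In 3798 silenced libraries 1 to 4 it had 5.56, 10.4, 7.05 and 38.4 FPKM, against 23.1, 38.6, 198 and 15.7 FPKM in 3798 controls 1 to 4. Here JX silenced 4 stayed far below the JX controls, while 3798 control 3 lay within their range. Its rank was 7, and that of Gh_D10G052800 was 116, for which the JX silenced median was 66.9 FPKM, against 17.9 FPKM for Gh_D10G210000.

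**Figure D2:**
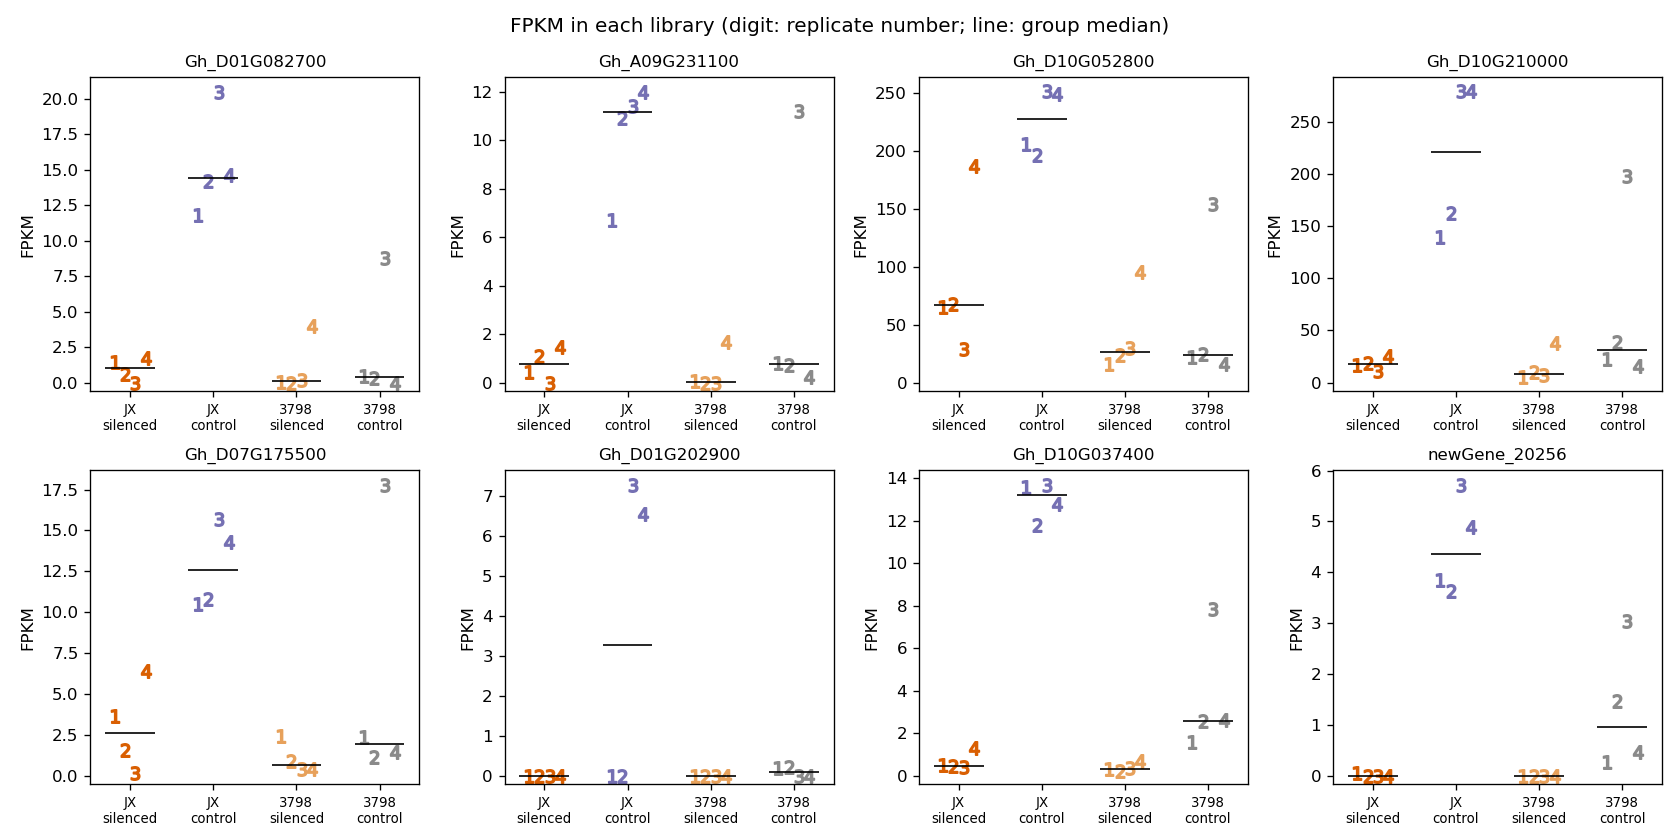
FPKM of 8 of the 150 genes in every library, with the digit giving the replicate number and the line the group median. Each panel has its own axis; 3798 control 3 stands above the other 3798 controls in all but Gh_D01G202900, which was read only in JX controls 3 and 4 at more than 1 FPKM.

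At the edge of the rule, Gh_D02G083400 (rank 150, ratio 3.29) had group medians of 1.70 FPKM in JX silenced libraries, 6.85 in JX controls, 1.01 in 3798 silenced libraries and 1.74 in 3798 controls. Gh_A02G208500 (ratio 3.28), the next in rank and just outside, had 2.95, 10.8, 1.69 and 1.90 FPKM in the same groups. The ratio fell away slowly beyond this point, to 2.89 at rank 300, so the number of genes is set by the rule and not by a gap in the data. In all, 46 genes had a ratio above 4, 19 above 5 and 3 above 8.

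The JX controls were mostly even. In 120 of the 150 genes their highest value was at most 2-fold above their lowest, and the median within-group SD of log2(FPKM + 0.5) was 0.245, against 0.151 over all eligible genes. JX control 3 was the highest of the 4 in 88 genes and JX control 4 in 41, while JX controls 1 and 2 were each the lowest in 64. The genes with the lowest JX controls above all 12 other libraries numbered 102 (68.0%), where 7.46% of eligible genes had such a gap. Without 3798 control 3 there were 135 such genes (background 10.7%), and without JX silenced 4 and 3798 silenced 4 as well, 141 (background 18.0%). The rule chose on this contrast, so nothing is read from these shares beyond which libraries close the gap.

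In 4 genes, picked out after their values were seen, the JX controls differed by more than 8-fold among themselves. Gh_D01G202900 was listed at 0 in JX controls 1 and 2 and had 7.28 and 6.56 FPKM in JX controls 3 and 4; it was listed at 0 in all 8 silenced libraries and did not exceed 0.208 FPKM in 3798 controls. Gh_A11G027900 had 4.25, 0.0135, 4.48 and 0.186 FPKM in JX controls 1 to 4, and Gh_A04G009000 had 8.87, 0.0743, 2.56 and 5.66 FPKM. Gh_A05G026200 had 14.9, 35.1, 3.48 and 30.1 FPKM in JX controls 1 to 4, and 11 of the 12 libraries outside the JX controls exceeded JX control 3 in this gene, the highest of them 3798 control 3 at 17.0 FPKM. For these the group median rests on a few libraries. Gh_D01G202900 and Gh_A11G027900 were at 0.5 FPKM or more in only 2 libraries and did not enter the fits below, which leaves 148 of the 150 genes.

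**Figure D3:**
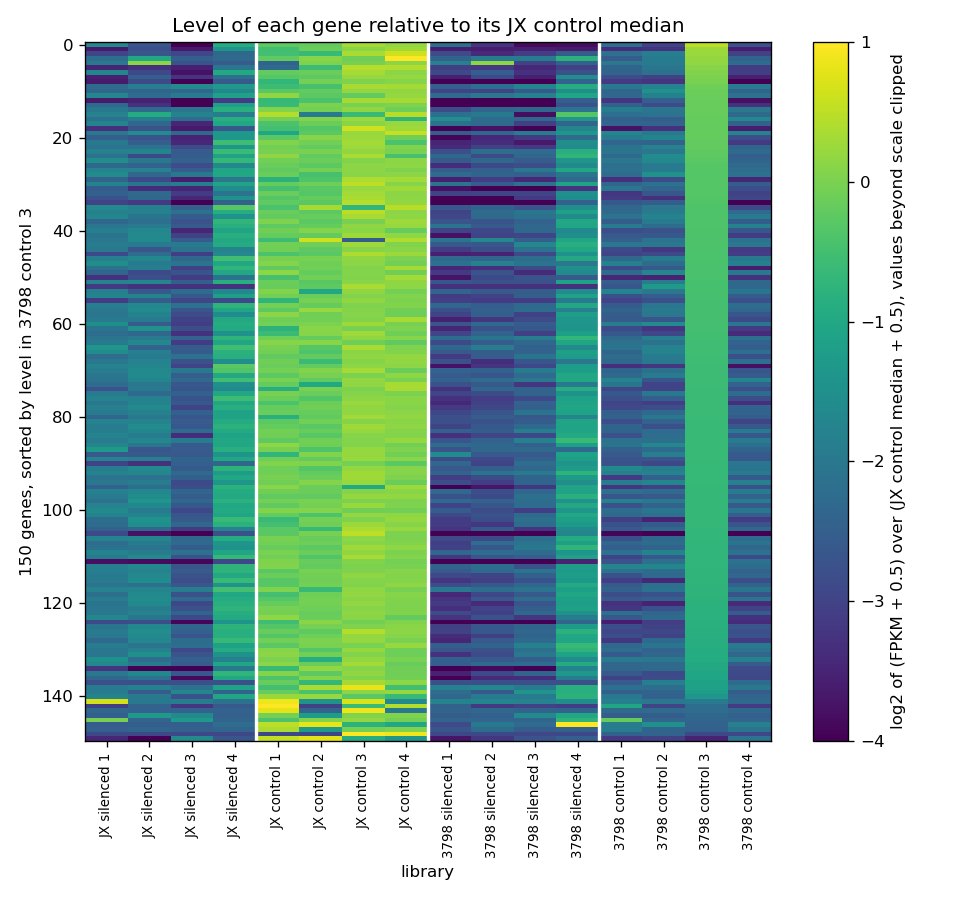
Each row is 1 of the 150 genes, sorted by its level in 3798 control 3, and each column a library; colour gives the log2 of (FPKM + 0.5) over (JX control median + 0.5), clipped at -4 and 1. JX controls are bright for most genes, 3798 control 3 is bright for most of the 150 genes, and JX silenced 4 and 3798 silenced 4 are brighter than the rest of their groups.

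In 3798 control 3 the median gene was at 0.654 of its JX control median (quartiles 0.586 and 0.753), against 0.138 for the median of 3798 controls 1, 2 and 4. This library was the highest 3798 control in 143 of the 150 genes, at or above the lowest JX control in 42, at or above the JX control median in 9, and above the highest JX control in 2. In 147 genes it was the highest or the lowest of the 3798 controls, where its exact value leaves the group median unchanged, so the rule hardly used its level. With 1 library no test is possible. The level was shared with genes outside the list. In 3092 eligible genes, the 150 included, the JX control median was at least 2-fold above that of 3798 controls 1, 2 and 4 (0.5 added). Of these, 94.9% were at or above 50% of the JX control median in 3798 control 3, and 31.1% were at or above the lowest JX control. The shares of the 150 genes were 88.7% and 28.0%. Genes near the 2-fold cut start near 50% and pass with little rise, while the median member starts at 0.138. These shares are therefore not compared. On the log2 scale the library lay 76.4% of the way from the other 3798 controls to the JX controls in the median member, and 75.2% of the way in the 2942 other genes with such a difference. In this position the 150 genes were like the other genes that separate the control groups.

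**Figure D4:**
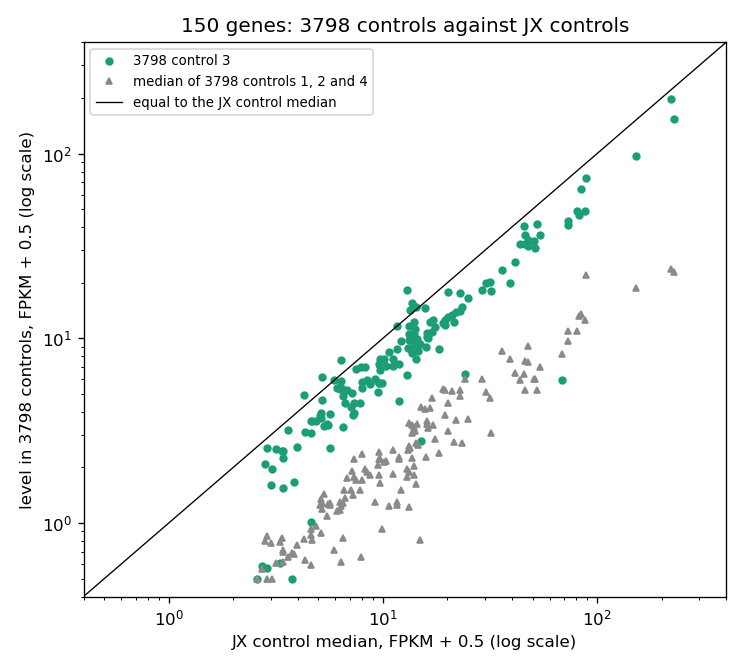
FPKM + 0.5 of the 150 genes in 3798 control 3 (circles) and as the median of 3798 controls 1, 2 and 4 (triangles), against the JX control median + 0.5, on log axes with the line of equal values. Counted on FPKM without the 0.5, 133 genes in 3798 control 3 are at or above 50% of the JX control median, 9 of them at or above that median itself, and 17 are lower. The triangles lie well below the line.

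The genes with the highest ratio of 3798 control 3 to the JX control median were Gh_D07G175500 and Gh_A03G153800. Gh_D07G175500, on chromosome D07, had 10.5, 10.8, 15.7 and 14.3 FPKM in JX controls 1 to 4, against 2.39, 1.14, 17.8 and 1.45 FPKM in 3798 controls 1 to 4, so that 3798 control 3 was above every JX control. Its 3798 silenced 4 library, at 0.417 FPKM, was not raised above the 2.44, 0.887 and 0.387 FPKM of 3798 silenced libraries 1 to 3. Gh_A03G153800, on chromosome A03, had 3.17, 2.85, 6.22 and 7.58 FPKM in JX controls 1 to 4, against 0.690, 0.956, 5.70 and 0.138 FPKM in 3798 controls 1 to 4. At the other end, 17 genes were under 50% of the JX control median in 3798 control 3. They were of lower level (middle JX control median 4.11 FPKM, against 12.6 FPKM in the other 133), 3 were newGene IDs, and 3 were among the 4 with uneven JX controls. The lowest were Gh_D01G202900 and Gossypium_hirsutum_newGene_15144, both listed at 0 there. Gossypium_hirsutum_newGene_15144 had 1.46, 2.18, 2.43 and 1.97 FPKM in JX controls 1 to 4, against 1.79 FPKM in 3798 control 1 and 0 in 3798 controls 2, 3 and 4.

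Within the silenced groups the genes were ordered by library. JX silenced 4 was the highest of its group in 134 of the 150 genes and JX silenced 3 the lowest in 119. JX silenced 3 also stood away from its group, on the low side. Its median log2 deviation from the rest of the group was -0.772, with 42 genes at -1 or lower. In 3798 silenced libraries, library 4 was the highest in 137 and library 1 the lowest in 88. On log2(FPKM + 0.5) the median gene lay 0.99 above the median of the other 3 libraries in JX silenced 4 and 1.41 above it in 3798 silenced 4. Over all eligible genes, where rises and falls cancel, the medians were 0.03 and 0.01. That does not make these libraries ordinary outside the 150 genes. In other genes that differ from the JX controls both lay part of the way toward them, as given above. The corresponding value for 3798 control 3 was 1.84, against 0.08 over all eligible genes. In 127 of the 150 genes (84.7%) JX silenced 4, 3798 silenced 4 and 3798 control 3 were all 3 the highest of their own groups. The share over eligible genes was 15.1%. The members were all chosen to be high in JX controls, while eligible genes differ from the JX controls in both directions. These 2 shares are therefore not compared. A 2-fold excess in all 3 was seen in 59 genes (39.3%). The share of eligible genes with such an excess was not counted. These libraries were named for being high in these data, so nothing is read from the 127 or the 59. No strain, treatment or replicate number is common to all 3 of these libraries. JX silenced 4 and 3798 silenced 4 share the treatment and the replicate number, and 3798 silenced 4 and 3798 control 3 share the strain. The labels name no batch.

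Across the 150 genes the size of the excess was only loosely shared. The deviations of 3798 control 3 and JX silenced 4 had a Pearson correlation of 0.40 (Spearman 0.27), those of 3798 control 3 and 3798 silenced 4 one of 0.23 (0.34), and those of the 2 silenced libraries one of 0.16 (0.11). Over the 40402 eligible genes the same correlations were 0.49, 0.49 and 0.38 (Pearson), or 0.53, 0.45 and 0.36 (Spearman). Most members were high in these libraries, which can lower correlations over them. The values for members and for eligible genes are therefore not compared. Genes of 1 library set are not independent.

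Silencing in JX and the control difference between strains are the contrasts that chose the genes. For completeness, 141 of the 148 were called lower in JX silenced than in JX control libraries (13.7% of 55040 genes tested) and 139 higher in JX control than in 3798 control libraries (17.6%). These counts follow from the rule and support nothing.

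The comparison of 3798 silenced with 3798 control libraries leaves the JX controls out, and the rule sets the same ceiling on both groups. The question is whether the genes high in JX controls were lower on silencing in 3798 too. By limma on log2(FPKM + 0.5), with Benjamini-Hochberg adjustment over all 55040 genes, 3 of the 148 fell in 3798 silenced libraries (2.03%) and 0 rose, while 5.28% of all genes fell and 7.51% rose. At an unadjusted p under 0.05 there were 18 of the 148 (12.2%), against 26.4% of all genes. Of the 148 genes, 14 reached 0.5 FPKM in fewer than 4 libraries outside the JX controls and so entered the fit through the JX controls, where they were chosen to be high. With the filter set on the 12 other libraries alone, added after the data were seen, 134 members were tested, of which 2 fell (1.49%) and 0 rose, against 5.20% of all genes lower. How the share of members called compared with that of all genes turned with the libraries used, as given below. The median SD of log2 in 3798 controls was 0.941 for the 150 genes, against 0.212 over all eligible genes, and 0.228 for the 150 without 3798 control 3.

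The genes called did not overlap between the groups. Gh_D10G037400, on chromosome D10, had 0.322, 0.219, 0.349 and 0.706 FPKM in 3798 silenced libraries 1 to 4, against 1.59, 2.56, 7.84 and 2.63 FPKM in 3798 controls 1 to 4. Every silenced library lay below every control, and the log2 difference was -2.03 (SE 0.330, limma adjusted p = 0.00067), or -1.62 (SE 0.240, limma adjusted p = 0.00033) without 3798 control 3. In JX the gene had 0.489, 0.443, 0.395 and 1.31 FPKM in silenced libraries 1 to 4, against 13.6, 11.8, 13.7 and 12.8 FPKM in controls 1 to 4. The JX controls had an SD of 0.853 FPKM (n = 4).

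Gossypium_hirsutum_newGene_20256, an ID with no position, was listed at 0 in all 4 3798 silenced libraries and had 0.267, 1.46, 3.05 and 0.463 FPKM in 3798 controls 1 to 4. In JX it was listed at 0 in silenced libraries 2, 3 and 4, with 0.0468 FPKM in library 1, against 3.84, 3.64, 5.72 and 4.88 FPKM in controls 1 to 4. It was thus near or at 0 in all 8 silenced libraries, the fourth ones included, and present in all 8 controls. Outside the JX controls it reached 0.5 FPKM in only 2 libraries, 3798 controls 2 and 3, so it entered the fit through the JX controls, and no p is given for it.

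Gh_A05G344300, on chromosome A05, the remaining gene called, was named after its values were seen. It had 0.466, 0.217, 0.225 and 0.906 FPKM in 3798 silenced libraries 1 to 4, against 2.76, 2.10, 10.1 and 1.40 FPKM in 3798 controls 1 to 4. The log2 difference was -1.98 (SE 0.482, limma adjusted p = 0.013), and -1.46 (SE 0.393, limma adjusted p = 0.020) without 3798 control 3. In JX it had 1.77, 0.805, 0.690 and 3.96 FPKM in silenced libraries 1 to 4, against 9.07, 10.4, 15.1 and 15.7 FPKM in controls 1 to 4. Over 27 other settings Gh_D10G037400 and Gh_A05G344300 passed in all, with limma adjusted p up to 0.011 and 0.043.

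For the 150 as a whole the direction in 3798 depended on single libraries. With all libraries, 134 of the 148 log2 differences were below 0 and the median was -0.36, against 0.01 over all genes tested. With the filter on the libraries outside the JX controls the median was -0.352 over the 134 members tested. The settings below keep all 148, including the 14 that entered through the JX controls. Without 3798 control 3, 60 were below 0 and 88 above it, with a median of 0.09. Without 3798 silenced 4, 144 were below 0 and the median was -0.69. By limma 11 members then fell (7.43%), against 4.69% of all genes. Without 3798 control 3, 3798 silenced 4 and JX silenced 4 together, a setting added after the data were seen, 114 of 148 were below 0 and the median was -0.27. In that setting 14 members fell (9.46%) and 0 rose, against 7.0% of all genes lower and 9.85% higher. The share of members lower was thus under that of all genes with all libraries and above it in these 2 settings. Both leave out 3798 silenced 4, a library named for being high in these genes. Without 3798 control 3 alone, 3 members fell (2.03%), against 6.46% of all genes. The shares of members and of all genes called in either direction were 9.46% and 16.8% without the 3 libraries together. At an unadjusted p under 0.05, 6 members passed without 3798 control 3 (4.05%, against 29.3% of all genes) and 33 without 3798 silenced 4 (22.3%, against 25.3%). The groups did not overlap for 5 of the 150 genes lower in silenced libraries and 1 higher, against 7.56% and 7.23% of eligible genes.

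**Figure D5:**
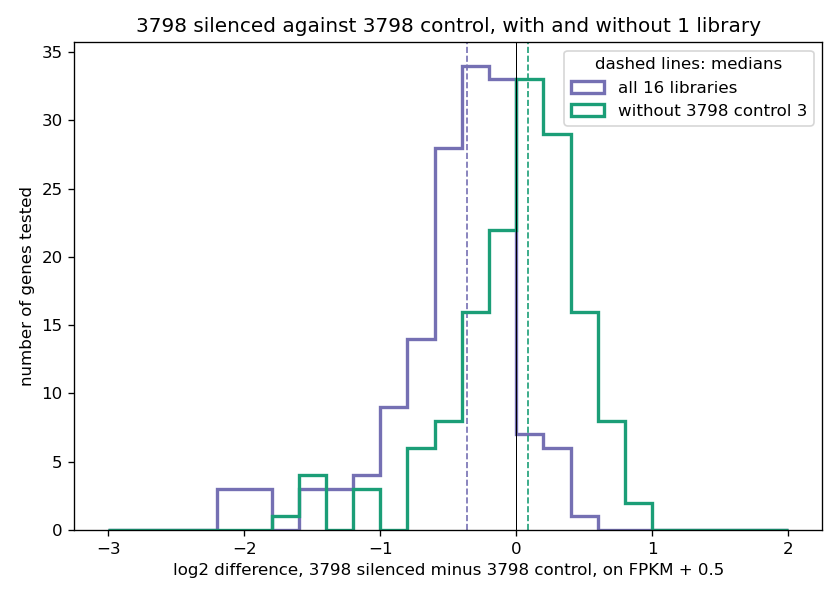
Distribution over 148 genes of the log2 difference between 3798 silenced and 3798 control libraries on FPKM + 0.5, with all 16 libraries and without 3798 control 3. The dashed medians are at -0.36 and 0.09.

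The silenced libraries of the strains form the other comparison free of JX controls. By limma 0 of the 148 genes differed between JX silenced and 3798 silenced libraries, as did 0 of all 55040 genes (0% called), and at an unadjusted p under 0.05 there was 1 of the 148 (0.676%), against 4345 of all genes (7.89%). That count depended on single libraries too: it was 8 without JX silenced 3 (5.41%, against 10.7% of all genes), 6 without 3798 control 3 (4.05%, against 10.5%) and 30 without 3798 silenced 4 (20.3%, against 8.67%). Without 3798 control 3, 3798 silenced 4 and JX silenced 4 together it was 60 (40.5%, against 8.81%), with 0 members called after adjustment. That setting was added after the data were seen, and its libraries were picked for being high in these same genes. Leaving them out narrows the spread of the members. In 3798 silenced libraries the members' median SD of log2 was 0.758, and 0.31 without library 4. Nothing about the strains is therefore read from the 60, or from the 30 without 3798 silenced 4. Most values leaned one way, and the log2 difference was above 0 in 134 of the 148 genes, against 56.5% of all genes, with a median of 0.40 (0.03 over all genes), and the group median was higher in JX silenced libraries in 133 of the 150. In no gene did the groups stand apart without overlap in either direction, where 2.54% of eligible genes did so higher in JX silenced and 2.17% lower. The median difference ranged from 0.15 without JX silenced 4 to 0.72 without 3798 silenced 4. With the filter on the libraries outside the JX controls it was 0.431 over 134 members, with 0 called.

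Gh_D10G052800 had the profile just described at a high level, with 87.4 ± 68.9 FPKM in JX silenced and 41.3 ± 36.6 FPKM in 3798 silenced libraries (SD, n = 4), and differed by 1.10 on the log2 scale (SE 0.689, limma adjusted p = 0.69). For Gh_A05G344300 the log2 difference was 1.12 (SE 0.482, limma adjusted p = 0.62). Neither passed. Among the 3 lower groups, the highest median was that of JX silenced libraries in 100 of the 150 genes, of 3798 controls in 40 and of 3798 silenced libraries in 10. The middle value of the group medians was 2.27 FPKM in JX silenced libraries, 1.34 in 3798 silenced libraries and 1.77 in 3798 controls.

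The 150 genes were spread over the genome. Their IDs named the A subgenome in 66 (44.0%), the D subgenome in 77 (51.3%), a contig in 1, and 6 (4.0%) were newGene IDs with no position, against 45.6%, 46.6%, 1.25% and 6.53% of eligible genes. All 26 chromosomes held at least 1, from 1 each on A02 and A13 to 11 on A11. Per eligible gene the share was highest on D09 (10 of 1401, 0.714%), A09 (10 of 1428, 0.700%) and D12 (10 of 1622, 0.617%), lowest on A13 (1 of 1367, 0.0732%), and 0.384% over all chromosomes. No test was run on these shares, which rest on 11 genes or fewer.

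Close neighbours within the list were few. IDs are numbered along each chromosome, and 3 pairs of the 150 lay within 10 IDs of each other, against 0 pairs among the 150 genes ranked next. Gh_D11G186600 and Gh_D11G186700 were next to each other, Gh_A11G001000 and Gh_A11G001200 were 2 IDs apart, and Gh_A11G009400 and Gh_A11G010000 6 apart. Of the 143 eligible genes directly beside a member and not members themselves, 68 (47.6%) had a ratio above 1 and 7 (4.9%) above 2, against 40.8% and 2.88% of all eligible genes. Reads of adjacent or near-identical genes could have been shared in the authors' counting, and this was not tested.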

How the data were processed

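The authors deposited 1 table of FPKM for 16 libraries, with columns tied to samples through the codes in their descriptions and groups read from the titles. The unit comes from the deposited table's name and values. The sources used here name no aligner, counter, build, annotation or strandedness. Values were not counts and reads were not recovered, so no count model was used. Genes at 0.5 FPKM or more in at least 4 libraries (55040) were tested on log2(FPKM + 0.5) with limma 3.58.1 in R 4.3.3 (1 mean per group, all 16 libraries, trend and robust options, two-sided, Benjamini-Hochberg adjustment, threshold 0.05). On simulated data for 3798 silenced minus 3798 control over 55040 genes, 76 of 100 changes of log2 1 and 97 of 100 of log2 2 were recovered, with 19 false calls. The simulated noise was independent and normal at the pooled SD of each gene, and no library stood apart from its group. The changed genes were drawn from the whole series. These rates are not those of the 150 genes, whose median SD of log2 in 3798 controls was 0.941, against 0.212 over all eligible genes. Descriptions used Python 3.11.15, numpy 2.4.6, pandas 2.3.3 and matplotlib 3.10.9. The genes, comparisons and settings were chosen with earlier results of these data known. Genes named are the 2 highest by ratio, by JX control median, and at either end of the ratio of 3798 control 3 to the JX control median, rank 150 with its neighbour, and the 2 called with the smallest p per direction and comparison. Others are said to be named after their values were seen. Relative depth is the most frequent ratio among genes under 0.5 FPKM in every library. In all, 0 pairs of libraries held identical values. Alternatives were other pseudocounts, filters, scalings, fits and weights, each library left out, a filter on the 12 libraries outside the JX controls, and changes to the ranking rule.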

Additional observations from a re-analysis of the deposited data

Results flagged for a closer look

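Of 56 groups of 4 values checked, 9 had 1 library far from the other 3, where chance flags about 5%. The libraries of a group are shared by all genes, so these are not independent. The genes checked are those named above, most of them for extreme values. The 5% holds for unselected values, so the count of 9 is not compared with it. The median FPKM of the 150 genes was 7.21 in 3798 control 3, with the next library of its group at 1.73, and their summed FPKM was 2110, with the next at 502. In 3798 silenced 4, Gh_A09G231100 was at 1.66 FPKM (next 0.0732) and Gh_D01G082700 at 4.00 FPKM (next 0.182). Gh_D10G037400 was at 1.31 FPKM in JX silenced 4 (next 0.489). Gh_A09G231100 was low in JX control 1, at 6.71 FPKM (next 10.9). For the remaining 3 the other libraries of the group were listed at 0, so that any value above 0 stands apart: Gossypium_hirsutum_newGene_15144 at 1.03 FPKM in 3798 silenced 4 and at 1.79 FPKM in 3798 control 1, and Gossypium_hirsutum_newGene_20256 at 0.0468 FPKM in JX silenced 1.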

How the results depend on the processing

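The choice of the 150 genes rested in part on its settings: 96 of them were chosen with group means in place of medians, 118 and 124 with 0.1 or 1 added to the ratio, 148 and 120 with a floor of 1 or 5 FPKM, 143 with median-ratio scaling, and 112 to 145 with 1 library left out. Without 3798 control 3, 3798 silenced 4 and JX silenced 4 together, 115 were chosen. For 3798 silenced minus 3798 control, 3 genes were called lower (2.03% of members, 5.28% of all genes), against 8 with weighted libraries (5.41% and 8.08%) and 14 without those 3 libraries together (9.46% and 7.0%). With 1 library left out the count was 3 to 11, with 11 without 3798 silenced 4 (7.43% and 4.69%) and 6 without 3798 control 4 (4.05% and 4.81%). The filter on libraries outside the JX controls, also added after the data were seen, gave 2, and Gossypium_hirsutum_newGene_20256 was not tested there. The other scalings, filters and pseudocounts gave 3 or 4. The median log2 difference over the 148 genes was -0.363, -0.694 without 3798 silenced 4, and reversed to 0.0873 without 3798 control 3. The cause was not tested. For JX silenced minus 3798 silenced, 0 genes were called under all 27 alternatives, while 0 to 30 passed an unadjusted p of 0.05 with 1 library left out, 12 with weighted libraries (8.11%, against 9.52% of all genes) and 60 without the 3 libraries. Nothing is read from the 60, as these libraries were picked for being high in these genes. With the replicate number as a replicate block, 3 and 0 genes were called. Correlations of the deviations of same-numbered libraries ran from -0.37 to 0.36, with no common sign over the pairs of groups. Between the 2 silenced groups all were above 0, at 0.09, 0.046, 0.25 and 0.36 for replicates 1 to 4. The count of 42 genes at or above the lowest JX control in 3798 control 3 was 41 and 42 under other scalings, and 31 to 41 with 1 JX control left out. Depth in reads is unknown, which limits what can be said of values near 0.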
